A study of Mus musculus with 4 samples.

Results

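The proteasome genes of inguinal white adipose tissue, the subcutaneous fat of the groin, were described by their N6-methyladenosine (m6A) peaks in obese mice given vehicle or entacapone. The members were all protein-coding genes whose symbol begins with Psma, Psmb, Psmc or Psmd and a digit, which gave 40 genes of the 21883 protein-coding genes in the RefSeq table of assembly GRCm38.p6 (mm10). By that rule 39 members encode proteasome subunits or factors named with them, and 1, Psmc3ip, encodes a meiotic recombination factor that shares only the start of the symbol. Psmc3ip had no peak in either list.

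The tissue came from male C57BL/6 mice aged 23 weeks with obesity induced by a high-fat diet, so the obesity was common to both treatments and no lean group was analysed here. Each treatment had 1 input library and 1 library of RNA immunoprecipitated (IP) with an antibody against m6A: vehicle input, vehicle IP, entacapone input and entacapone IP. Entacapone is a drug against Parkinson's disease that blocks catechol-O-methyltransferase, and a further action reported for it is inhibition of FTO, an enzyme that removes m6A. The labels state neither dose nor treatment time, nor whether 1 animal or several gave a library. With 1 library of each kind, a difference lies between these libraries, with no test across animals and no p-value.

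The proteasome is the protease that breaks down proteins tagged with ubiquitin. Its 20S core is a barrel in which rings of alpha subunits (Psma) form the gates and rings of beta subunits (Psmb) hold the cutting sites. Its 19S cap unfolds the substrate with a ring of ATPases (Psmc) and recognises and removes ubiquitin with non-ATPase subunits (Psmd). m6A is a methyl mark on adenosines inside mRNA that is known to be densest around stop codons and in long exons. Antibodies against m6A also bind m6Am, a related mark on the base next to the mRNA cap, so a peak at a transcript start can hold either mark, and which one was not tested.

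The input libraries held 24548212 counts in vehicle and 33164576 in entacapone, a ratio of 1.35. Those counts carry Ensembl identifiers that none of the tables used here pairs with symbols, so RNA levels of the proteasome genes are not given, and a peak that is absent from a list cannot be told apart from a transcript with too little RNA. The m6A lists held 22860 vehicle and 31856 entacapone peaks, a ratio of 1.39, and the read depth of the IP libraries is unknown here. Each peak has a fold, read as the authors' linear enrichment of IP over input; its median was 3.32 in the vehicle list and 3.10 in the entacapone list. Folds are used to describe and rank peaks within a list.

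Few proteasome genes carried a peak in vehicle, and more did in entacapone. In the vehicle list 2 of 40 members (5.0%) had a peak, whereas 41.1% of all protein-coding genes did. In the entacapone list 13 of 40 members (32.5%) had a peak, against 50.0% of all protein-coding genes. Both members with a vehicle peak also had an entacapone peak, 11 members had entacapone peaks but no vehicle peak (27.5%, against 11.3% of all protein-coding genes), 0 had vehicle peaks but no entacapone peak (against 2.40%), and 27 had none. The shares of members thus lay below those of all genes in both lists, and the share with an entacapone peak alone lay above that of all genes. Only a gene without a vehicle peak can be counted there, and members lacked vehicle peaks more often than all genes did. The contrast of 27.5% with 11.3% is therefore tied to the low vehicle share and is not a separate result. The members' gene spans, 2535 to 88683 bp with a median of 11930 bp, were shorter than the median of 17170 bp over all protein-coding genes. Among the 16062 protein-coding genes with a span in the members' range, 43.7% had a vehicle peak, 53.7% an entacapone peak and 12.6% an entacapone peak alone. Members with an entacapone peak had a median span of 18879 bp, against 9927 bp for those with no peak.

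The members carried 3 vehicle peaks and 16 entacapone peaks. Of these, 1 vehicle peak overlapped 1 entacapone peak, which left 2 vehicle-only and 15 entacapone-only peaks. Vehicle-only peaks made up 20.5% of all vehicle peaks in protein-coding genes, and 2 of the 3 in members. Entacapone-only peaks made up 43.0% of all entacapone peaks in protein-coding genes, and 93.8% of those in members. With 3 vehicle peaks in members, few of the 16 entacapone peaks could be shared. The high share thus restates the low vehicle count.

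**Figure D1:**
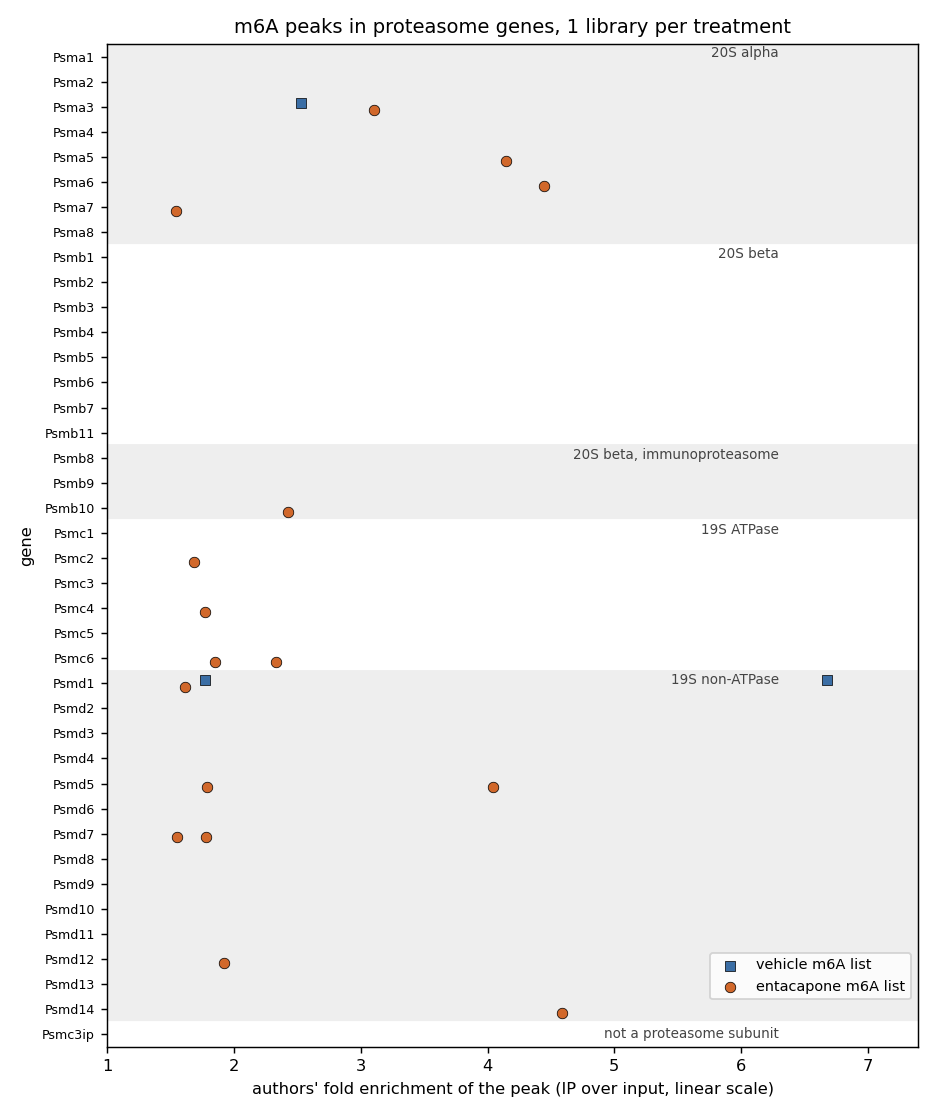
Peaks of all 40 members by gene (vertical axis, grouped by subcomplex) against the authors' fold enrichment (horizontal axis, linear ratio of IP over input); squares are the 3 vehicle peaks, circles the 16 entacapone peaks, 1 library per treatment. The 8 constitutive and thymic beta subunits have no marker in either list, and 9 of the 16 circles lie below a fold of 2.

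Among the alpha ring genes, 1 of 8 had a vehicle peak and 4 of 8 an entacapone peak, the latter the same share as the 50.0% of all protein-coding genes, with no peak in Psma1, Psma2, Psma4 or the testis subunit Psma8. Psma3 was the alpha gene with a peak in both lists, but not the same peak. On the plus strand of chromosome 12 (gene span 70969283 to 70995877), its vehicle peak lay at 70990459 to 70990560 with a fold of 2.53, and its entacapone peak lay at 70986079 to 70986142 with a fold of 3.10. The peaks were 4317 bp apart. They lay 5368 bp and 9767 bp from the end of the gene span, respectively, so neither was at a gene end.

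Psma5 and Psma6 had entacapone peaks of higher fold in the interior of the gene. The Psma5 peak, at 108274238 to 108274303 on chromosome 3, had a fold of 4.14, and the nearest vehicle peak was 7433 bp away. The Psma6 peak, at 55398245 to 55398363 on chromosome 12, had a fold of 4.45, and its midpoint lay 521 bp before the downstream of the 2 listed start sites of that gene. The Psma7 peak differed from these: it lay at 180036418 to 180036467 on chromosome 2, with its midpoint 76 bp from the gene end, and its fold of 1.54 ranked at the 0.27th percentile of the entacapone list. Of the alpha genes with a peak, Psma7 thus had the peak nearest a gene end and the lowest fold.

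The beta ring, which holds the proteolytic sites, was the subcomplex with the fewest peaks. None of the 8 genes Psmb1 to Psmb7 and Psmb11, the thymic subunit, had a peak in either list, although 41.1% and 50.0% of protein-coding genes did. Psmb5, Psmb6 and Psmb7 encode the catalytic subunits of the constitutive proteasome. In immune cells and under interferon they are replaced by Psmb8, Psmb9 and Psmb10, the subunits of the immunoproteasome, which favours peptides for antigen presentation. Of these 3, Psmb10 had 0 vehicle peaks and 1 entacapone peak, on chromosome 8 at 105938034 to 105938091, and Psmb8 and Psmb9 had none. The Psmb10 peak had a fold of 2.42 and its midpoint lay 330 bp into the minus-strand gene, which spans 105935728 to 105938392. That single peak is the difference between the immunoproteasome subunits and the subunits they replace. A pseudogene of the beta family, Psmb7-ps2 on the X chromosome, had 1 entacapone-only peak at 8106014 to 8106079 with a fold of 3.57, and the remaining 5 pseudogenes with such symbols had none.

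The ATPase ring of the 19S cap had 0 of 6 members with a vehicle peak and 3 of 6 with an entacapone peak (Psmc2, Psmc4 and Psmc6), against 41.1% and 50.0% of all protein-coding genes. Psmc1, Psmc3 and Psmc5 had none. Psmc4 had 1 peak, at 28041751 to 28041812 on chromosome 7, whose midpoint lay 80 bp from the end of the minus-strand gene, with a fold of 1.77. Psmc6 had 2 peaks on chromosome 14, at 45329875 to 45329957 with a fold of 1.85 and at 45330921 to 45331050 with a fold of 2.33. The former was 93 bp and the latter 1163 bp from the gene start, so both Psmc6 peaks lay in the first part of a gene of 19252 bp. The Psmc2 peak, at 21786789 to 21786905 on chromosome 5, had a fold of 1.68, and its midpoint lay 1572 bp from the start of the span but 100 bp after the downstream of the 2 start sites listed for that gene.

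The non-ATPase genes had 1 of 14 members with a vehicle peak and 5 of 14 with an entacapone peak, against the same 41.1% and 50.0%. Psmd1 encodes the large scaffold subunit of the cap, and it carried the only peak that the lists shared. On the plus strand of chromosome 1 (gene span 86064619 to 86139295), that peak lay at 86139057 to 86139141 in the vehicle list with a fold of 1.77 and at 86139057 to 86139127 in the entacapone list with a fold of 1.61. The start was identical, the midpoints lay 196 and 203 bp before the gene end, and the folds ranked low in their lists, at percentiles 2.1 and 1.4.

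Psmd1 also held the member peak of highest fold, a vehicle-only peak at 86110697 to 86110764 with a fold of 6.68 (percentile 93.3 of the vehicle list). Its midpoint also lay within Htr2b, the gene of a serotonin receptor, which spans 86097546 to 86116231 on the minus strand inside Psmd1. The library kit named in the labels does not mark the strand, so this peak cannot be assigned to Psmd1 or to Htr2b. Without peaks that lie in another protein-coding span, the members had 1 vehicle-only peak, that of Psma3.

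Psmd5, a chaperone of cap assembly, had 2 entacapone peaks at opposite ends of its minus-strand gene on chromosome 2. The peak at 34870829 to 34870917 lay 92 bp from the gene start and had a fold of 4.04, and the peak at 34852677 to 34852776 lay 640 bp from the gene end and had a fold of 1.79. Psmd7, a partner of the deubiquitinase Psmd14, had 2 entacapone peaks on chromosome 8, at 107580679 to 107580761 (fold 1.55) and 107581222 to 107581308 (fold 1.78), 340 and 885 bp from the same end of its span. The strand of Psmd7 was not in the table used, so its peaks are not placed at the start or the end. Psmd14 itself, which cuts ubiquitin from the substrate, had 1 peak at 61794583 to 61794632 on chromosome 2 with a fold of 4.59, the highest of the entacapone peaks in members. That peak was 49 bp wide and lay 5769 bp before the end of a gene of 88683 bp. Its fold is a value that 232 peaks of the entacapone list have exactly, and the Psma6 fold is shared by 140 peaks, whereas the median peak of that list has its fold in common with 18 peaks, itself included. Psmd2, Psmd3, Psmd4, Psmd6, Psmd8, Psmd9, Psmd10, Psmd11 and Psmd13 had no peak.

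Psmd12, a structural subunit of the cap, had an entacapone peak that began 14 bp after the gene start, at 107479542 to 107479596 on chromosome 11, with a fold of 1.92. It is the member peak that reaches farthest into a promoter window of the RefSeq table, which runs from 250 bases before a start site to 50 after it. The Psmd12 window is printed because the peak covers its last 36 bases. A scan of those bases for GGAC, the core of the commonest m6A sequence, found 2 matches in the sequence read along the gene. The window is chr11:107479278-107479577, plus strand, from RefSeq with build GRCm38.p6, and the capitals mark the part under the peak.
Psmd12: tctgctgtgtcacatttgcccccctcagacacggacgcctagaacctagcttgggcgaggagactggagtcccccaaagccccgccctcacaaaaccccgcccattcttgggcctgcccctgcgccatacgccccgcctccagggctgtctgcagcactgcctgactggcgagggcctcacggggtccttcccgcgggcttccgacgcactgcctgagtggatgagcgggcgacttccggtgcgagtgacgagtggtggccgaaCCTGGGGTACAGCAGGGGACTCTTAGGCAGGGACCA
The Psmc2 and Psmd5 peaks overlapped their windows by 8 and 5 bases, with 0 matches to GGAC. For Psmc2 the window is that of the downstream start, chr5:21786497-21786796, plus strand, which shows how the peak begins just after that start, again with the part under the peak in capitals.
Psmc2: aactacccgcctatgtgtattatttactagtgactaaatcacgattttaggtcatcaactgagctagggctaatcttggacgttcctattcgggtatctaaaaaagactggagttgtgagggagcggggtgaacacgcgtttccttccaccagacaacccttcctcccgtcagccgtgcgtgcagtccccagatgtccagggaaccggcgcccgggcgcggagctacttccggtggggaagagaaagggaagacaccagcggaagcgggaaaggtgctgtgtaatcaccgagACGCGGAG

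The entacapone peaks of the members often lay near gene starts and ends. Of 14 entacapone peaks in members with a listed strand, 4 (28.6%) lay within 1000 bp of the gene start, 4 (28.6%) within 1000 bp of the gene end and 6 elsewhere. Over all protein-coding genes with a listed strand, 11.0% of entacapone peaks lay within 1000 bp of the start and 17.2% within 1000 bp of the end. Peaks whose midpoint lay 0 to 200 bp after a listed start site, a window chosen after the values were seen, numbered 4 of 14 in members (Psmc2, Psmc6, Psmd5 and Psmd12) and made up 7.65% of all such entacapone peaks. These shares rest on 4 peaks each, and the lists hold no exons, so how far they follow the position of exons was not tested. The comparison with all genes was also not matched for gene span, although a fixed window covers more of a short gene.

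**Figure D2:**
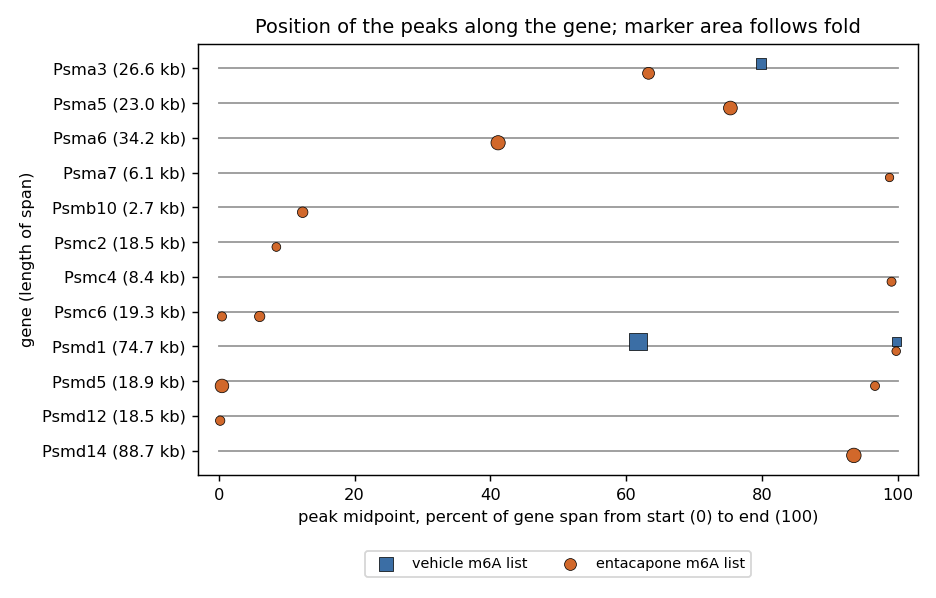
Midpoints of the member peaks along the gene, in percent of the gene span from the start (0) to the end (100), for the 12 peak-bearing members with a listed strand; squares are vehicle peaks, circles entacapone peaks, and the marker area follows the authors' fold. Small markers gather at both ends of the genes, and 3 of the 4 entacapone peaks with a fold of at least 4 (Psma5, Psma6 and Psmd14) lie in the interior of the span. The Psma6 peak is near a listed start site inside the span.

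Position and fold went together in these peaks. All but 1 of the 9 entacapone peaks with a fold under 2 lay within 1000 bp of an end of the gene span, the exception being Psmc2. Of the 4 with a fold of at least 4, 3 lay farther inside. These distances are to the outer ends of the span. Inside it, the Psma6 peak, 1 of these 3, lay 521 bp from a listed start site, and the Psmc2 peak 100 bp from one. Among all entacapone peaks in protein-coding genes, 36.0% of those with a fold under 2 and 21.0% of those with a fold of at least 4 lay within 1000 bp of a span end. The direction was thus the same in the list as a whole.

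The folds of the member peaks were low for the list. In the entacapone list 9 of 16 member peaks (56.2%) had a fold under 2, against 14.99% of all peaks in protein-coding genes. In the vehicle list it was 1 of 3, against 8.74%. For 6 of the 13 members with an entacapone peak, Psma7, Psmc2, Psmc4, Psmd1, Psmd7 and Psmd12, no peak reached a fold of 2. The Psma7 peak and the weaker Psmd7 peak, at 1.54 and 1.55, were below 1.58, the lowest fold in the vehicle list, so peaks of such folds are not listed in vehicle for any gene; 285 entacapone peaks (0.895%) are of this kind. Member peaks were also narrow, with a median width of 76 bp in the entacapone list against 113 bp over protein-coding genes.

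The count of members with an entacapone peak rested on these weak peaks. With a fold of at least 2, 2 members had a vehicle peak, Psma3 and, only through the peak inside Htr2b, Psmd1. An entacapone peak of such a fold was found in 7, namely Psma3, Psma5, Psma6, Psmb10, Psmc6, Psmd5 and Psmd14. The shares were 5.0% and 17.5%, against 38.6% and 45.2% of all protein-coding genes. With a fold of at least 4 it was 1 member, Psmd1 through the peak inside Htr2b, and 4 members, Psma5, Psma6, Psmd5 and Psmd14, against 19.7% and 21.8% of all protein-coding genes. With the 22860 entacapone peaks of highest fold, as many as the vehicle list holds, 6 members had an entacapone peak and 2 a vehicle peak, whereas the share over all protein-coding genes was 40.2% in entacapone and 41.1% in vehicle. In each of these settings the members with an entacapone peak outnumbered those with a vehicle peak.

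**Figure D3:**
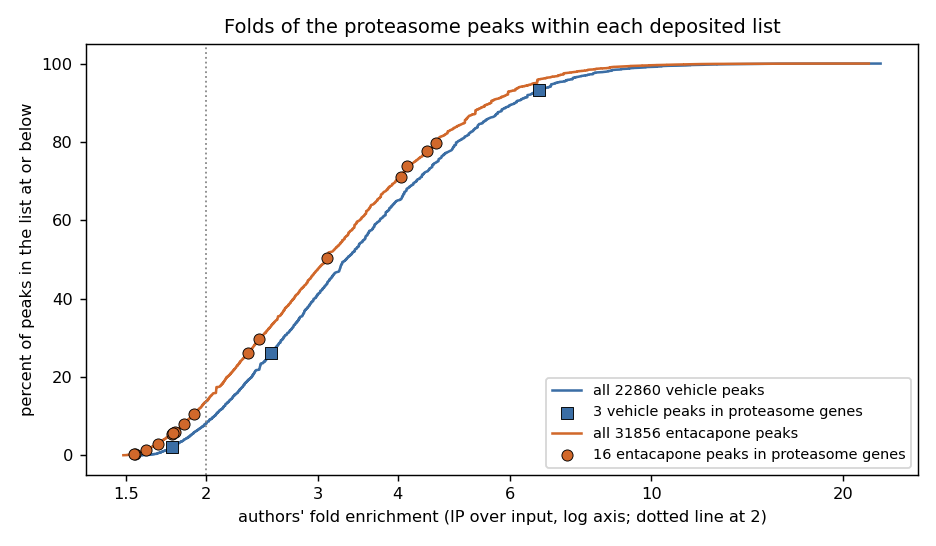
Cumulative share of peaks (vertical axis, percent) at or below each fold (horizontal axis, log scale) for the 22860 vehicle and 31856 entacapone peaks, with the member peaks marked as squares and circles. The circles cluster at the bottom left: 9 of the 16 entacapone member peaks lie left of the dotted line at a fold of 2, and none lies above 4.59.

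Other large families of housekeeping subunits were counted in the same way. Of 89 cytosolic ribosomal protein genes, 6 had a vehicle and 10 an entacapone peak (6.74% and 11.2%). Of 87 nuclear genes of oxidative phosphorylation subunits, 7 and 17 did (8.05% and 19.5%), and of 78 mitochondrial ribosomal protein genes, 29 and 54 did (37.2% and 69.2%). The proteasome genes, at 5.0% and 32.5%, were close to the former pair of families in vehicle and lay between them and the mitochondrial ribosomal genes in entacapone. These shares count genes whatever their span. Median spans were 11930 bp in proteasome, 3164 bp in cytosolic ribosomal, 7131 bp in oxidative phosphorylation and 7690.5 bp in mitochondrial ribosomal genes. Relative to total span, the proteasome genes had the fewest peaks of these families in both lists, in entacapone only just below oxidative phosphorylation. Entacapone peaks with a fold under 2 were the larger part of the cytosolic ribosomal peaks (9 of 11), and made up 10 of 21 in oxidative phosphorylation and 37 of 74 in mitochondrial ribosomal genes, so low folds were shared by these families. With a fold of at least 2 the cytosolic ribosomal genes turned, with 5 vehicle and 2 entacapone genes, whereas the proteasome genes (2 and 7), the oxidative phosphorylation genes (6 and 10) and the mitochondrial ribosomal genes (17 and 29) did not. With equal numbers of top-ranked peaks the mitochondrial ribosomal genes had 29 and 21 and the cytosolic ribosomal genes 6 and 0, whereas the oxidative phosphorylation genes had 7 and 8 and the proteasome genes 2 and 6. None of these differences between families was tested.

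**Figure D4:**
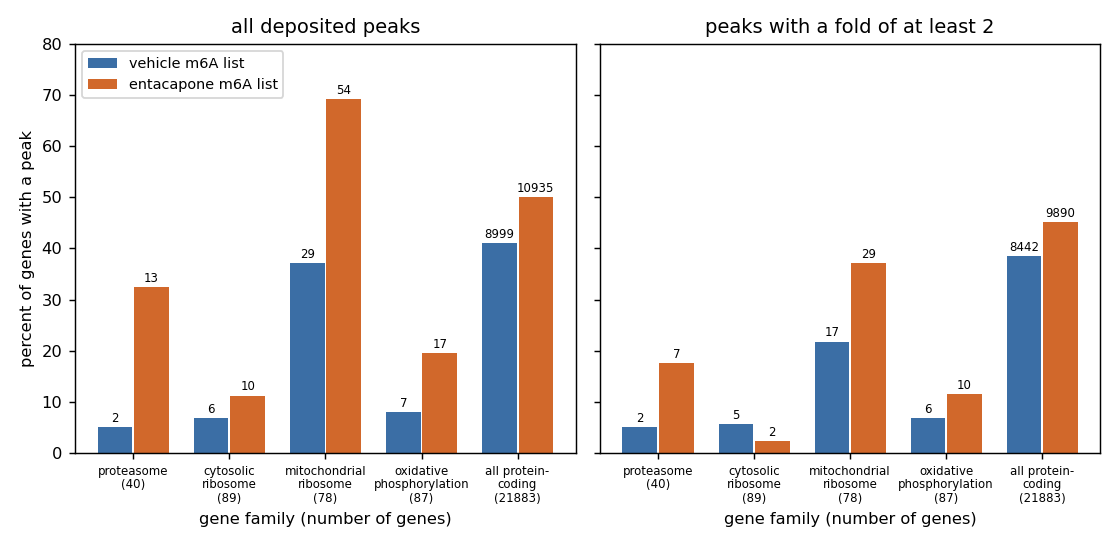
Percent of genes that carried a peak, by list (vertical axis) for the proteasome genes, 3 other families and all protein-coding genes (horizontal axis, number of genes in parentheses), with all peaks on the left and peaks with a fold of at least 2 on the right; the number on each bar is the number of genes. The proteasome bars stand at 5.0% and 32.5% on the left and at 5.0% and 17.5% on the right.

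Peaks were also counted in genes that act on the proteasome. In the list of assembly factors and activators, 15 of 16 genes were matched and 7 had a vehicle and 10 an entacapone peak (46.7% and 66.7%, against 41.1% and 50.0% of all protein-coding genes). Psmg2, an assembly chaperone, went the other way, with 1 vehicle peak of fold 3.91 and 0 entacapone peaks. Psme1, a subunit of the interferon-induced activator, and Adrm1, the ubiquitin receptor of the cap, had 0 vehicle peaks and 1 entacapone peak each, with folds of 2.35 and 1.83. Psme3 and Psme4, activators of the nuclear proteasome, had vehicle peaks of folds 1.81 and 1.96. Psme3 had 2 entacapone peaks and Psme4 had 1. Among genes for transcription control of the proteasome, the same 9 of 10 had a peak in each list (90.0%, against 41.1% and 50.0% of all protein-coding genes). Nfe2l1, the factor that raises proteasome genes when the proteasome is inhibited, had 1 peak in each list, but not the same peak: on chromosome 11 the vehicle peak lay at 96829866 to 96829923 (fold 2.36) and the entacapone peak at 96829392 to 96829449 (fold 2.02), with no overlap. Ddi2, the protease that activates it, had 3 and 4 peaks. The ubiquitin supply and shuttling list went from 6 to 8 of 15 genes (40.0% and 53.3%), close to the shares of all protein-coding genes, with Ubb, a polyubiquitin gene, at 0 and 1 peak (fold 1.53) and Ubqln4, a shuttle factor, at 3 and 3.

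Genes linked to the immunoproteasome were counted beside Psmb10. In the antigen presentation list 4 of 9 genes had a vehicle peak and 6 an entacapone peak (44.4% and 66.7%, against 41.1% and 50.0% of all protein-coding genes). Tap1 and Tap2, the peptide transporter beside Psmb8 and Psmb9 on chromosome 17, had 2 peaks in each list. B2m, the light chain of class I molecules, had 0 vehicle peaks and 3 entacapone peaks, with folds of 1.51, 2.14 and 2.21. The weakest of these was below 1.58, the lowest fold in the vehicle list. Nlrc5, the transactivator of class I genes, had 1 vehicle peak and 6 entacapone peaks, the latter with folds from 1.82 to 3.04. In the interferon response list, with 11 of 12 genes matched, 9 had a vehicle and 8 an entacapone peak (81.8% and 72.7%). Its genes held 25 vehicle and 20 entacapone peaks. The numbers in vehicle and entacapone were 7 and 4 in Ifit1, 3 and 1 in Oas2, 4 and 3 in Ifit2, and 1 and 0 in Irf9. Ifit3 (2 and 3) and Rsad2 (1 and 2) went the other way. Adipocyte markers had a peak in 4 of 8 genes in each list (Lep, Cidec, Plin1 and Retn), while Adipoq, Fabp4, Cfd and Plin4 had none. Macrophage markers had a vehicle peak in 3 and an entacapone peak in 4 of 8 genes, and lymphocyte markers in 5 and 7 of 8. For endothelial markers it was 2 and 5 of 5, for skin and gland epithelium markers 3 and 5 of 6, and for skeletal muscle markers 3 and 2 of 6. These small sets stand beside 41.1% and 50.0% of all protein-coding genes. The endothelial genes were long, with a median span of 61069 bp against 17170 bp over all protein-coding genes. Of their 20 entacapone peaks, 7 had a fold under 2. The part of these cell types in the peaks of proteasome genes was not tested.

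The promoter windows were scanned for a sequence that the peaks do not use. Nfe2l1 and its relative Nfe2l2 bind the antioxidant response element, searched here as TGACNNNGC on both strands, and 33 of 40 members had a window in the table. The motif was found in 5 of 33 members (15.2%), against 14.8% of protein-coding genes with a window of the same length. CCAAT, the NF-Y box, searched on both strands, was found in 14 of 33 (42.4%) against 42.3%. With the first listed start site of each gene alone, the same numbers of members held a motif, against 13.1% of protein-coding genes for TGACNNNGC and 39.2% for CCAAT. The members' shares were thus near the background in both counts. The motif was present in 2 of the 12 members with a window and a peak and in 3 of the 21 with a window and no peak. The 5 matches are printed with their surroundings because they show which members hold one in the window, none of them an alpha ring gene. Capitals mark the motif, read along the gene, and a match is not evidence of binding.
Psmb5 (chr14:54618016-54618060, minus strand): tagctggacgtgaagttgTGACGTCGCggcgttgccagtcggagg
Psmb6 (chr11:70525330-70525374, plus strand): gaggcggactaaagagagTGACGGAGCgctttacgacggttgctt
Psmd9 (chr5:123228141-123228185, plus strand): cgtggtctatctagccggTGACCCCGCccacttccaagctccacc
Psmc6 (chr14:45329579-45329623, plus strand): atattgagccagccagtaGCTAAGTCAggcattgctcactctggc
Psmd12 (chr11:107479278-107479307, plus strand): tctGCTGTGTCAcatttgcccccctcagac
The matches of Psmb5, Psmb6 and Psmd9 began 47, 9 and 31 bases before the start site, and those of Psmc6 and Psmd12 began 227 and 247 bases before it and read on the opposite strand. The 3 genes with a match close to the start had no peak in either list, and the pair with a distant match each had an entacapone peak near the gene start. That split was not planned and rests on 5 matches, and 21 of the 33 members with a window had no peak. A link between motif position and peaks was not tested.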

How the data were processed

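The tools named in the submitters' processing notes are TopHat2 2.1.1, MACS2 and build mm10; the sources used here do not give the peak threshold, the counting tool or the annotation. The authors deposited raw read counts per Ensembl identifier for each input, used only for depth, and 1 peak list per IP library whose unlabelled last column is read as a linear fold (ratio of IP over input), since it never falls below 1 and, among the 20 commonest values of each list, 6 lie in equal linear steps (of 0.269 in vehicle and 0.510 in entacapone, tolerance 0.0001). Coordinates are as deposited; whether starts count from 0 or 1 is not stated.

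A peak belonged to a gene when its midpoint lay in the span in the RefSeq table (GRCm38.p6), and peaks were shared from 1 bp of overlap. Strands and start sites came from the promoter table (33 of 40 members). The assignment code was run on simulated peaks centred in the middle of gene spans, and 200 of 200 were recovered in their gene. The midpoint rule must recover such peaks, and peaks near span ends were not simulated. Python 3.11.15 and pandas 2.3.3 were used. Named with positions were all members with a peak; the planned comparison of members in the inputs was not run. Kinases and other genes that are not ribosomal proteins were left out of the cytosolic ribosomal rule, which otherwise gave 15 and 18 of 101 genes. Members and lists were chosen with earlier results of these data known.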

Additional observations from a re-analysis of the deposited data

How the results depend on the processing

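Of 44 alternative values, 31 stayed within 1.5 times the reported value and 13 moved. With a fold of at least 2, entacapone members, peaks and entacapone-only peaks were 7 each, and with equal numbers of top-ranked peaks 6 each. With a fold of at least 4 they were 4 each, and vehicle members, peaks and vehicle-only peaks were 1 each. Vehicle-only peaks were 1 without peaks in another protein-coding span. Any overlap with the span, the other settings for overlap, spans longer by 1000 bp, starts from 0, leaving out Psmc3ip and the first start site moved no value past 1.5 times. The last 4 and sharing within 1000 bp were chosen after seeing the data. Spans longer by 1000 bp took members with a vehicle peak from 2 to 3 and those with an entacapone peak from 13 to 14. Equal numbers of top-ranked peaks took vehicle-only peaks from 2 to 3. A gain of 1 on a count of 2 is not past 1.5 times, so such changes count as unmoved. The alternatives for the input counts were not run, since no table pairs the identifiers with symbols. No paired analysis was possible because each group had 1 library.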
